A study of Mus musculus with 4 samples.

Results

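Gene expression was measured in B16-F10, an established mouse melanoma cell line, after 24 h in culture. Treated cells received 100 ng/mL of recombinant Cdh1 and control cells did not. Cdh1 is the mouse symbol for E-cadherin, and whether the protein was the soluble fragment or carried a tag is not given in the sources used here. The account given here concerns 10 genes whose products are candidate partners of soluble E-cadherin or proteases that release it: Egfr, Erbb2, Erbb3, Erbb4, Igf1r, Klrg1, Itgae, Itgb7, Adam10 and Adam15. They were chosen by name, out of 23462 genes with a matched probe, and each was followed through every non-control probe that carried a RefSeq accession of the gene. The 10 genes had 19 probes. Samples were 2 control and 2 Cdh1-treated cultures in medium with 10% fetal bovine serum, arranged as 2 independent sets of 1 control and 1 treated culture. All 4 RNA samples were read on 1-colour arrays of 1 slide in 1 scan, and between 59.3% and 61.3% of the non-control spots of an array were well above background. Every result is thus for a single line at 1 dose and 1 time, and the serum in the medium was common to both groups.

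E-cadherin is a transmembrane adhesion protein whose extracellular part can be cut off near the membrane. The protease ADAM10 is the best known enzyme of this release, called shedding, and ADAM15 has also been described to do so in carcinoma cells. The released fragment has been described to bind receptor tyrosine kinases of the ERBB family and the insulin-like growth factor 1 receptor. On lymphocytes, membrane E-cadherin is bound by the inhibitory receptor KLRG1 and by the integrin formed from the alpha E chain (Itgae) and the beta 7 chain (Itgb7).

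Signals are given on the log2 scale relative to the 75th percentile of the processed intensity of the array, so that a signal of 0 is that percentile. A signal depends on the probe as well as on the transcript, so a higher signal of 1 probe than of another does not show a more abundant transcript. Where 4 signals follow each other below, their order is that of the arrays: the control and then the treated culture of set 1, followed by the control and the treated culture of set 2. The lowest signals that the scanner software marked as well above background were -5.77, -5.94, -6.04 and -5.60. Of the 19 probes, 11 were well above background on all 4 arrays and 5 on none.

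**Figure D1:**
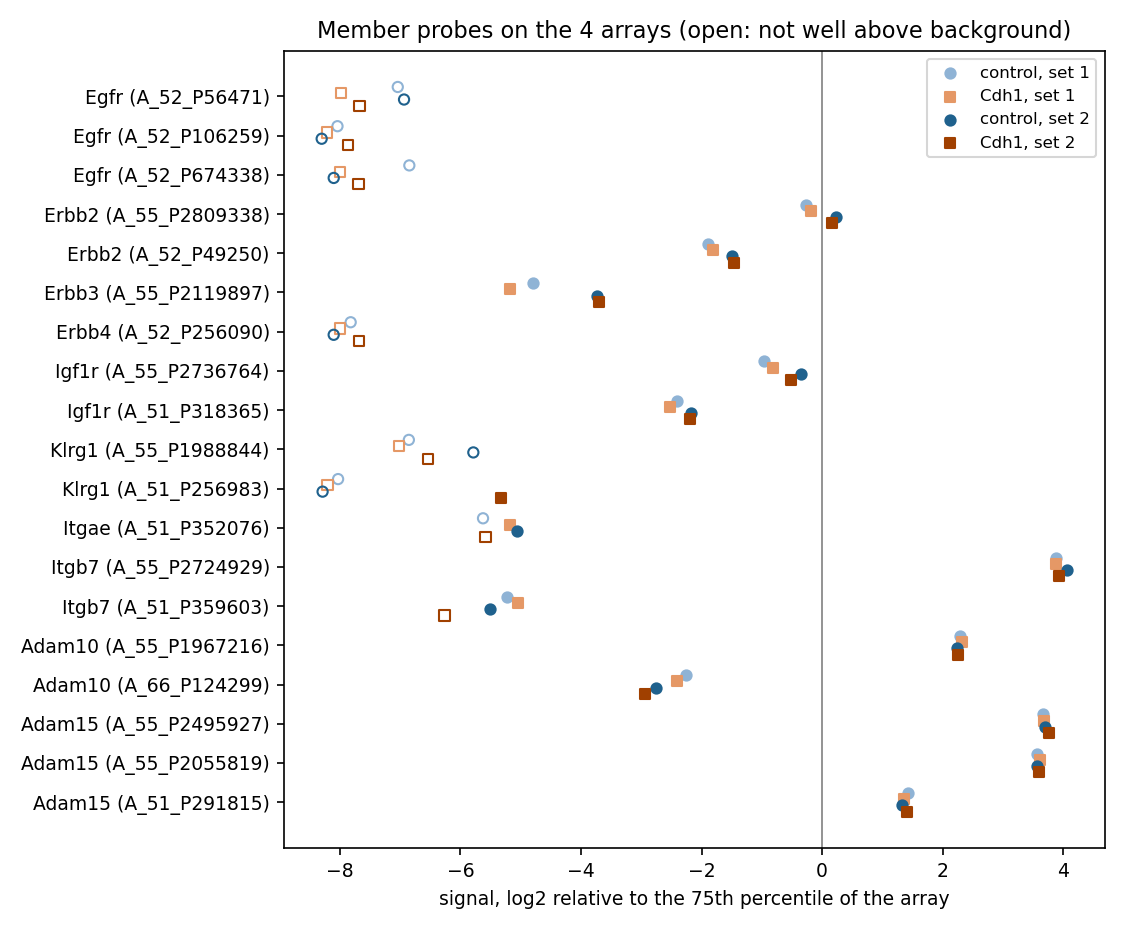
Signal of each of the 19 probes on the 4 arrays, on the log2 scale relative to the 75th percentile of the array (x axis), with blue circles for control, brown squares for Cdh1, light shades for set 1 and dark shades for set 2. Filled symbols are well above background and open symbols are not. Egfr and Erbb4 are open throughout, and for Erbb2, Erbb3 and Igf1r the dark symbols lie to the right of the light ones.

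The ERBB family and Igf1r divided into 3 genes that were well above background and 2 that were not. Erbb2, which encodes the ERBB receptor with no ligand of its own and serves as a partner of the others, and Igf1r, the receptor for insulin-like growth factors, were well above background on all 4 arrays with each of their probes. Erbb3, a neuregulin receptor that signals through its partners, was also well above background on all 4 arrays, but dim. Egfr, the receptor for epidermal growth factor, was well above background on 0 of 4 arrays with each of its 3 probes. Erbb4, a further neuregulin receptor, was likewise above it on 0 of 4 arrays with its 1 probe.

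Promoter sequence is shown for 4 of the genes to place these levels beside the region from which each is transcribed. Of the 10 genes, 7 were in the RefSeq promoter table (GRCm38.p6), and Erbb3, Klrg1 and Itgae were not. The 250 bases before the annotated start are printed for Erbb2 and Igf1r, whose signals in set 2 lay above those in set 1, for Adam15, whose signals hardly differed, and for Egfr, which was not well above background. Capitals mark the GC box, searched as GGGCGG on either strand.
Erbb2, chr11:98412234-98412483, plus strand: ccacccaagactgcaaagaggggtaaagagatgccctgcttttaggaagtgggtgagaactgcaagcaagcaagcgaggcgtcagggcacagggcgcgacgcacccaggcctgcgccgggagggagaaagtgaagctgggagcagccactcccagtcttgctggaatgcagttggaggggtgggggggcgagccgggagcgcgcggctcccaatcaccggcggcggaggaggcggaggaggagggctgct
Igf1r, chr7:67952007-67952256, plus strand: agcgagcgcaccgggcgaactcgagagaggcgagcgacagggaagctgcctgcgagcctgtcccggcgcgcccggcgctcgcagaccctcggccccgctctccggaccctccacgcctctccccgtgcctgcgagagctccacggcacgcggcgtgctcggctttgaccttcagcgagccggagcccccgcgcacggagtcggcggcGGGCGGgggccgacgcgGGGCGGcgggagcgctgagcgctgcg
Adam15, chr3:89350029-89350278, minus strand: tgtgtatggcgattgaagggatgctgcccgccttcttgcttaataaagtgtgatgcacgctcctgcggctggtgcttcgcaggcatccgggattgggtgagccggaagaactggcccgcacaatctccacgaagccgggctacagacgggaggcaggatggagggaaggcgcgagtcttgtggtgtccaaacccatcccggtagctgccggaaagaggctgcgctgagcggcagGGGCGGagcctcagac
Egfr, chr11:16751953-16752202, plus strand: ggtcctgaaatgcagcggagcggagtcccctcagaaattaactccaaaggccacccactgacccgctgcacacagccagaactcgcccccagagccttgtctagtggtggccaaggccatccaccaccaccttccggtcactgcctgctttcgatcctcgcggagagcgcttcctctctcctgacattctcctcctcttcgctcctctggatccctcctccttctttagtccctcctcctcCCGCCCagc

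The 4 windows were all richer in G and C than the median window of the table, which had 52.4%. The share was 66.0% for Erbb2, 77.6% for Igf1r, 62.0% for Adam15 and 60.8% for Egfr. The Igf1r window held 42 CG dinucleotides, a number equalled or undercut by 99.3% of the 32851 windows, whereas Erbb2 held 16, Adam15 18 and Egfr 11. The GC box occurred 2 times in the Igf1r window, 1 time in those of Adam15 and Egfr, and not in that of Erbb2; 32.7% of all windows held it. The letters TATAAA and the SOX motif ACAAAG, searched on either strand, were in none of the 4 windows, and 12.4% and 16.5% of all windows held them. These counts describe the letters of the windows and say nothing about binding.

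No member gene passed the test between Cdh1 and control. Of the 10 genes, 6 had a brightest probe that was well above background on both arrays of a group and could be tested, and none was called (limma, Benjamini-Hochberg adjusted over 32568 probes, threshold 0.05). Over all genes tested by their brightest probe the share called was 0%. The 6 genes were Erbb2, Erbb3, Igf1r, Itgb7, Adam10 and Adam15, and 12 of their probes were tested. At an unadjusted p under 0.05 the number was 0 of 12, beside 561 of all 32568 probes tested. The median difference, Cdh1 minus control, was 0.002 over the 6 genes and -0.01 over all genes tested, with 3 members higher and 3 lower. With 2 arrays per group, an exact two-sided permutation test of a single value cannot give a p below 0.333.

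Erbb2 (NM_001003817) had signals of -0.27, -0.19, 0.23 and 0.16. Both treated arrays lay between the controls, so the groups overlapped, and set 2 was the higher of the sets. Controls had a mean of -0.02 ± 0.35 and treated cells of -0.01 ± 0.25 (SD, n = 2), a difference of 0.01 with a 95% interval of -0.66 to 0.67 (limma adjusted p 1). A further probe of the gene gave -1.89, -1.81, -1.49 and -1.47. It showed the same order of the sets, with a Cdh1 difference of 0.04 and an interval of -0.55 to 0.64. This further probe lay in the last 24 of the 384 rows of spots, along an edge of the array.

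Igf1r (NM_010513) gave -0.96, -0.82, -0.36 and -0.51. Here again the treated arrays lay between the control arrays. The difference between Cdh1 and control was -0.003, with a 95% interval of -0.73 to 0.73 (limma adjusted p 1). Within the sets it was 0.15 in set 1 and -0.15 in set 2, opposite in sign. The further probe of Igf1r, with signals of -2.41, -2.52, -2.18 and -2.18, gave a difference of -0.05.

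Erbb3 (NM_010153) had the widest spread among the members tested by their brightest probe. Its signals were -4.79 and -5.17 in set 1, against -3.73 and -3.71 in set 2. The sets did not overlap, whereas the groups did. The Cdh1 difference was -0.38 in set 1 and 0.03 in set 2, with a mean of -0.18 and a 95% interval of -1.99 to 1.64 (limma adjusted p 1). At such low signals the arrays are less precise. Among probes printed 10 times each, the median SD of the spots on an array was 0.172 for the 8 probes with a signal under -3 and 0.038 for the other 282.

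For Egfr, the signals of the probe for NM_007912 were -7.04, -7.98, -6.93 and -7.67. Both control arrays were above both treated arrays, but all 4 lay under the lowest signal counted as well above background, so no fold is given. The probes for NM_207655 gave -8.04, -8.21, -8.30 and -7.86, and -6.85, -7.99, -8.10 and -7.69. They did not repeat the order of the groups. The probe of Erbb4 (NM_010154) gave -7.82, -7.99, -8.10 and -7.68. It ranked the arrays in the same order as the dimmest Egfr probe, with Cdh1 set 2 highest and control set 2 lowest. The order was not particular to these genes: probes of Itga2, Cd8a and Ptprc, well above background on no array, had it too.

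The genes of the lymphocyte receptors of E-cadherin were at or near background, apart from 1 probe. Klrg1 (NM_016970), an inhibitory receptor of natural killer and T cells, gave -6.85, -7.02, -5.79 and -6.53 with its brighter probe, on no array well above background. Its further probe gave -8.03, -8.21, -8.29 and -5.32. Only the last of these, in Cdh1 set 2, was flagged as well above background, while the treated array of set 1 lay beside the controls. Itgae (NM_008399), the alpha E chain, gave -5.62, -5.18, -5.06 and -5.58. It was well above background in Cdh1 set 1 and control set 2 and not on the other arrays, so the flag followed neither the treatment nor the set, and neither Klrg1 nor Itgae was tested.

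The 2 probes of Itgb7, the beta 7 chain that pairs with alpha E or with alpha 4, disagreed. The probe for NM_013566 was dim, at -5.22, -5.04, -5.51 and -6.26, and was not well above background in Cdh1 set 2. The probe annotated to the predicted transcript XM_017316440 was among the bright probes, at 3.88, 3.89, 4.07 and 3.94, and was well above background throughout. The array thus gives no single level for Itgb7, and which probe reports the transcript of the beta 7 chain was not tested. Neither showed a Cdh1 difference past the threshold. It was -0.06 with a 95% interval of -0.40 to 0.27 for the bright probe and -0.28 with an interval of -1.56 to 0.997 for the dim probe (limma adjusted p 1 for each). The dim probe passed the filter on low signals through the control group alone.

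The brightest probes of the sheddase genes had the narrowest intervals among the 6 tested genes. The brightest probe of Adam10 (NM_007399) gave 2.29, 2.32, 2.24 and 2.26, and that of Adam15 (NM_001037722) gave 3.67, 3.68, 3.69 and 3.76. In each set the treated array was the higher by at most 0.07, and for both genes the groups overlapped. The Cdh1 difference was 0.02 for Adam10, with a 95% interval of -0.27 to 0.31, and 0.04 for Adam15, with an interval of -0.25 to 0.33 (limma adjusted p 1 for each). The further probes of Adam15 gave 3.57, 3.61, 3.57 and 3.60, and 1.43, 1.36, 1.32 and 1.40, with differences of 0.03 and 0.01. The further probe of Adam10 was dimmer, at -2.25, -2.41, -2.75 and -2.93. Its Cdh1 difference was -0.16 in set 1 and -0.18 in set 2, lower in both, so the probes of Adam10 differed in sign. The mean of this further probe was -0.17 with an interval of -0.93 to 0.60. With the sets as a block the interval was -0.36 to 0.02 (limma adjusted p 0.72).

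Within the sets, the differences of the 11 member probes above background throughout ran from -0.38 to 0.15. Without Erbb3 they ran from -0.18 to 0.15. Over the 31158 such probes of the whole array, the 5th and 95th percentiles were -0.27 and 0.33 in set 1 and -0.23 and 0.35 in set 2. Only Erbb3 in set 1 lay outside that range. The sign was the same in both sets for 6 of the 11 probes.

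**Figure D2:**
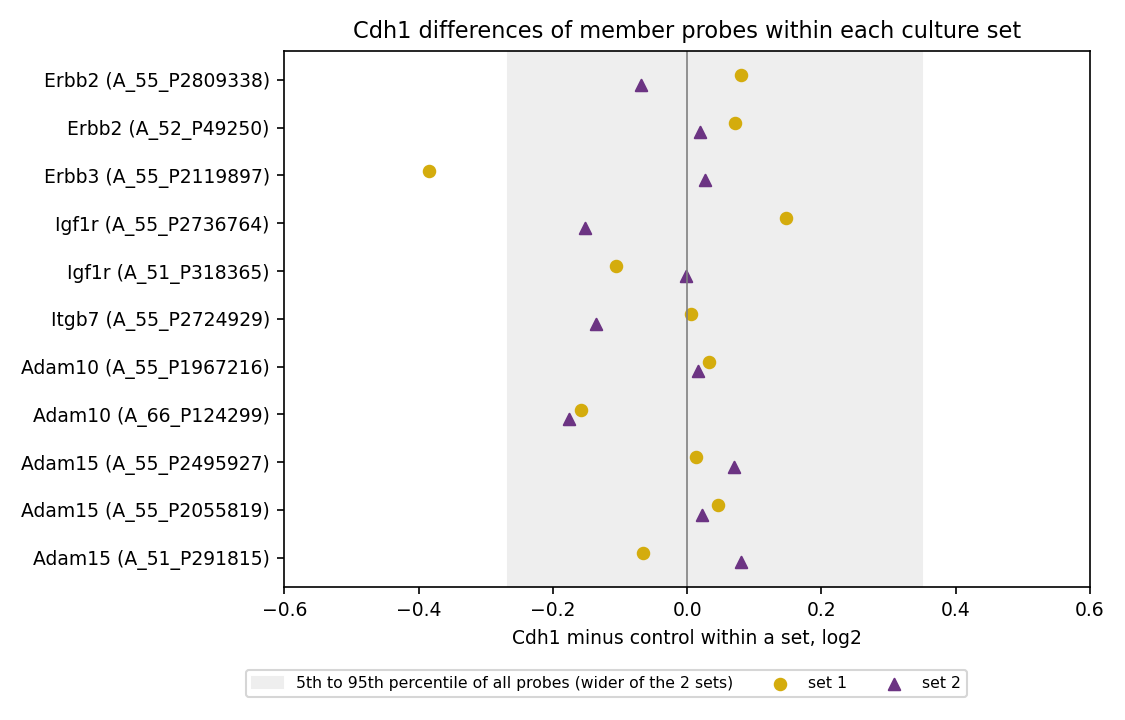
Cdh1 minus control on the log2 scale (x axis) for the 11 member probes above background throughout, in set 1 (circles) and set 2 (triangles), 1 pair of arrays each. The grey band spans -0.27 to 0.35, the 5th to 95th percentile of all such probes (the wider limit of the 2 sets on each side), and only Erbb3 in set 1, at -0.38, lies outside it.

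Erbb2 and Erbb3 passed the threshold between the culture sets, and both were higher in set 2. The sets are the independent repeats of the experiment, and the sources used here do not say how they differed. In bulk RNA, fewer cells that express a gene and less of its RNA per cell cannot be told apart. Erbb3 rose by 1.26 from set 1 to set 2, or 2.40-fold (SE 0.15, limma adjusted p 0.0235). Its mean went from -4.98 ± 0.27 to -3.72 ± 0.02 (SD over the control and the treated culture of a set, n = 2). The difference was 1.06 in untreated and 1.47 in treated cultures, and 2.01% of all genes tested had an absolute difference at least as large. For the smaller differences of Erbb2 and Igf1r, given next, that share was 16.7% and 14.9%. Erbb2 rose by 0.42, or 1.34-fold (SE 0.06, limma adjusted p 0.0346), by 0.50 in untreated and 0.35 in treated cultures. Its further probe gave 0.37 (limma adjusted p 0.0358). Igf1r was higher by 0.46 (SE 0.09), with 0.61 in untreated and 0.31 in treated cultures, and missed the threshold at a limma adjusted p of 0.0552. Igf1r was called under 4 of the alternatives. The limma adjusted p was 0.0427 under a filter that asks for all 4 arrays and 0.0173 for the mean of its probes. It was 0.0131 after normexp and 0.00074 with a trended robust prior. No other alternative called Igf1r. The limma adjusted p was 0.101 with the treatment as a block and 0.213 without the filter on dim probes. Its further probe gave 0.28 (limma adjusted p 0.0675).

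The calls on Erbb2 and Erbb3, 2 of 6 tested members, and on 3 of 12 tested probes, stand against a background of 14.0% of all probes and 17.5% of all genes called between the sets in either direction and 7.00% called higher in set 2. With the treatment as a block they were not called, at limma adjusted p 0.0756 for Erbb2 and 0.0504 for Erbb3, where 6.06% of all genes (2.17% higher in set 2) and 4.90% of all probes were called. Without the filter on dim probes both calls were also lost, at 0.175 and 0.116. After normexp background correction the Erbb3 difference was 0.44 and still called (limma adjusted p 0.00498). Leaving out any single array of the 4 also ended both calls, as it did for every probe of the array: 0 probes were then called between the sets, against 4571 with all arrays. The adjusted p was then 0.101 to 0.147 for Erbb2 and 0.0697 to 0.124 for Erbb3, and the differences were 0.38 to 0.46 and 1.07 to 1.45.

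Over the 6 tested members the median difference between the sets was 0.27, with 5 higher and 1 lower in set 2, beside a median of -0.03 over all genes tested. The brightest probes of the sheddases and of Itgb7 did not pass the threshold between the sets. The difference, set 2 minus set 1, was -0.06 with a 95% interval of -0.20 to 0.09 for Adam10, 0.05 with an interval of -0.11 to 0.21 for Adam15 and 0.12 with an interval of -0.08 to 0.32 for Itgb7. The further Adam10 probe was lower in set 2 by a larger amount, with a difference of -0.51 (SE 0.10, limma adjusted p 0.0529). It was -0.50 in untreated and -0.52 in treated cultures. The probes of Adam10 therefore agreed in sign here and differed in size. The mean of both Adam10 probes differed by -0.28 and was called (limma adjusted p 0.0345). The dim Itgb7 probe gave -0.76 (limma adjusted p 0.158), opposite in sign to the bright probe.

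**Figure D3:**
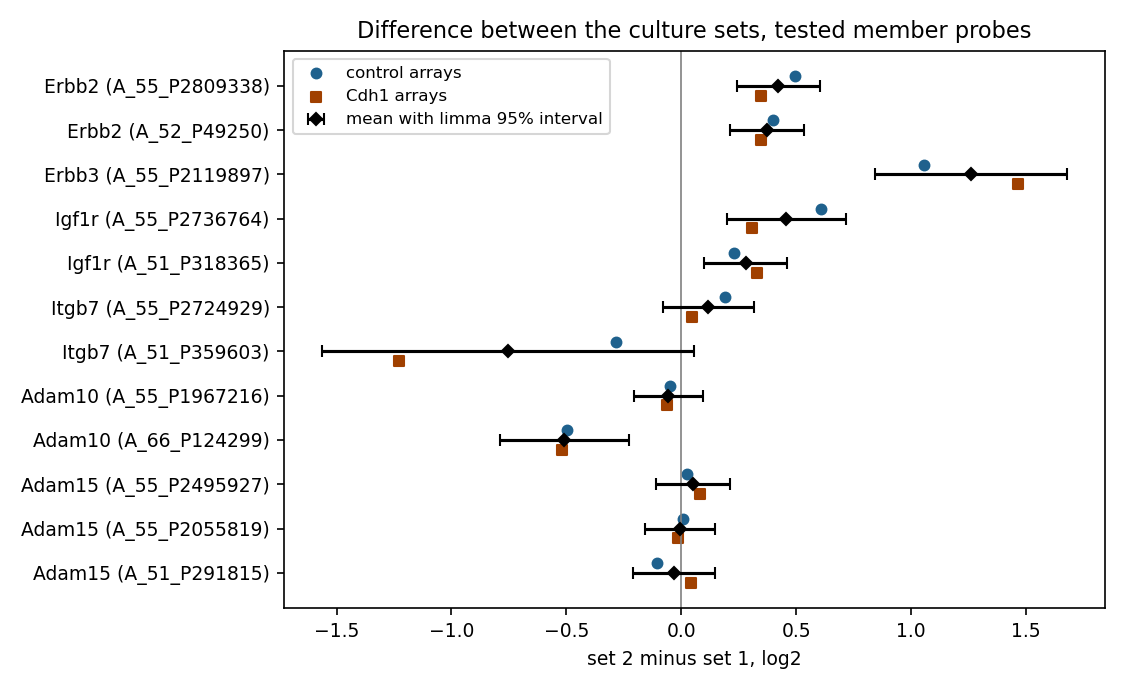
Set 2 minus set 1 on the log2 scale (x axis) for the 12 tested probes. Diamonds are means over both treatments with the 95% interval of limma, circles the control arrays and squares the Cdh1 arrays. The intervals of the Erbb2, Erbb3 and Igf1r probes lie above 0, and that of the dimmer Adam10 probe lies below it. The intervals of the other probes include 0.

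Genes that work with the members were followed through 7 lists, which held 75 genes with a matched probe. Of these, 53 were tested. None was called between Cdh1 and control, beside 0% of all genes, with differences from -0.22 to 0.31. Over the whole array 561 of the 32568 tested probes had an unadjusted p under 0.05, and of the 53 genes 1 did. That gene was Adam8, a membrane protease of the ADAM family, named here because of its value. Its signals were -1.87, -1.53, -1.78 and -1.50. Both treated arrays were above both controls, by a mean of 0.31 (SE 0.11, limma adjusted p 1). Between the sets 17 of the 53 were called (32.1%), 8 higher and 9 lower in set 2, beside the 17.5% of all genes. Over all genes 7.00% were called higher and 10.5% lower, the shares against which the counts of each list stand. The list medians of the set difference were -0.01 for ERBB ligands, 0.03 for adaptors and inhibitors, -0.17 for the IGF genes, 0.23 for integrin and KLRG1 partners, -0.41 for other proteases that cut E-cadherin, -0.04 for other ADAM genes and 0.04 for sheddase maturation and inhibition. With the treatment as a block 5 of the 53 were called, beside 6.06% of all genes (2.17% higher and 3.88% lower): Tgfa, Irs2, Ctsl, Adam19 and Tspan14.

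Of the 11 genes for ERBB ligands, 6 were measured on all 4 arrays and 4 on none. Those measured were Egf, Tgfa, Hbegf, Nrg1, Nrg2 and Nrg4. Tgfa, a ligand of the EGF receptor, gave -4.93, -4.53, -3.30 and -3.19, with both arrays of set 2 above both of set 1. It rose by 1.48 from set 1 to set 2 (limma adjusted p 0.0202, and 0.0436 with the treatment as a block). Nrg4, a ligand of Erbb4, fell by 0.32 (limma adjusted p 0.0378, and 0.0797 with the block). Hbegf, named because its probe had the highest signal of the list, gave -1.18, -1.15, -1.06 and -1.23. Of the 12 genes for adaptors and inhibitors of the receptors, 11 were tested and none was called in either comparison. Ptpn11, a phosphatase that relays receptor signals and was named by the same rule, had a set difference of 0.10.

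In the IGF list of 14 genes, 8 were tested, 1 was called higher and 2 lower in set 2 (7.00% and 10.5% of all genes). Irs2, an adaptor that docks to the insulin and IGF1 receptors, gave 0.55, 0.60, -0.37 and -0.50. It fell by 1.004 from set 1 to set 2 (limma adjusted p 0.0126, and 0.0455 with the block), opposite in sign to the Igf1r difference. Igf2r, which carries IGF2 to degradation, fell by 0.30, and Igfbp4, an IGF binding protein, rose by 0.29 (limma adjusted p 0.0440 and 0.0474). Neither was called with the treatment as a block (0.0889 and 0.0902). The ligand genes Igf1 and Igf2 were well above background on 0 and 1 arrays. Among 7 partners of the integrin chains and of KLRG1, 3 were tested and none was called. Itgb1, an integrin beta chain named by the same rule, had a set difference of -0.13. Itga4, the partner of beta 7, gave 2.41, 2.41, 2.64 and 2.62.

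Between the proteases the differences ran both ways. Of 11 genes for other proteases that cut E-cadherin, 5 were tested and 2 called, both lower in set 2 as were 10.5% of all genes: the cathepsins Ctsl and Ctsb, with differences of -0.71 and -0.47 (limma adjusted p 0.0135 and 0.0286, and 0.0472 and 0.0662 with the block). Of 6 other ADAM genes all were tested, Adam19 rose and Adam9 fell. Adam19 gave -1.13, -1.10, 0.30 and 0.15, a difference of 1.34 (limma adjusted p 0.00968, and 0.0422 with the block). Adam9 differed by -0.53 (limma adjusted p 0.0318, and 0.0581 with the block). Adam17, a further sheddase, gave 0.87, 0.76, 0.83 and 0.86 and was not called.

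All 14 genes for maturation and inhibition of the sheddases were tested, and 5 rose and 3 fell between the sets (7.00% and 10.5% of all genes). With the treatment as a block 1 of the 14 was called. Among the 6 tetraspanins that escort ADAM10 from the endoplasmic reticulum, Tspan14, Tspan15 and Tspan17 rose, and Tspan5 and Tspan10 fell. Tspan14 gave 1.51, 1.52, 2.62 and 2.50 and rose by 1.04 (limma adjusted p 0.0109, and 0.0426 with the block), and Tspan15 rose by 0.70 (limma adjusted p 0.0187, and 0.0534 with the block). Timp4, an inhibitor of metalloproteases, rose by 0.90 (limma adjusted p 0.0378, and 0.0540 with the block). Timp2, a further such inhibitor named for the signal of its probe, was higher by 0.42 and not called (limma adjusted p 0.0537). No gene of the list was called between Cdh1 and control, where the differences ran from -0.21 to 0.06.

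**Figure D4:**
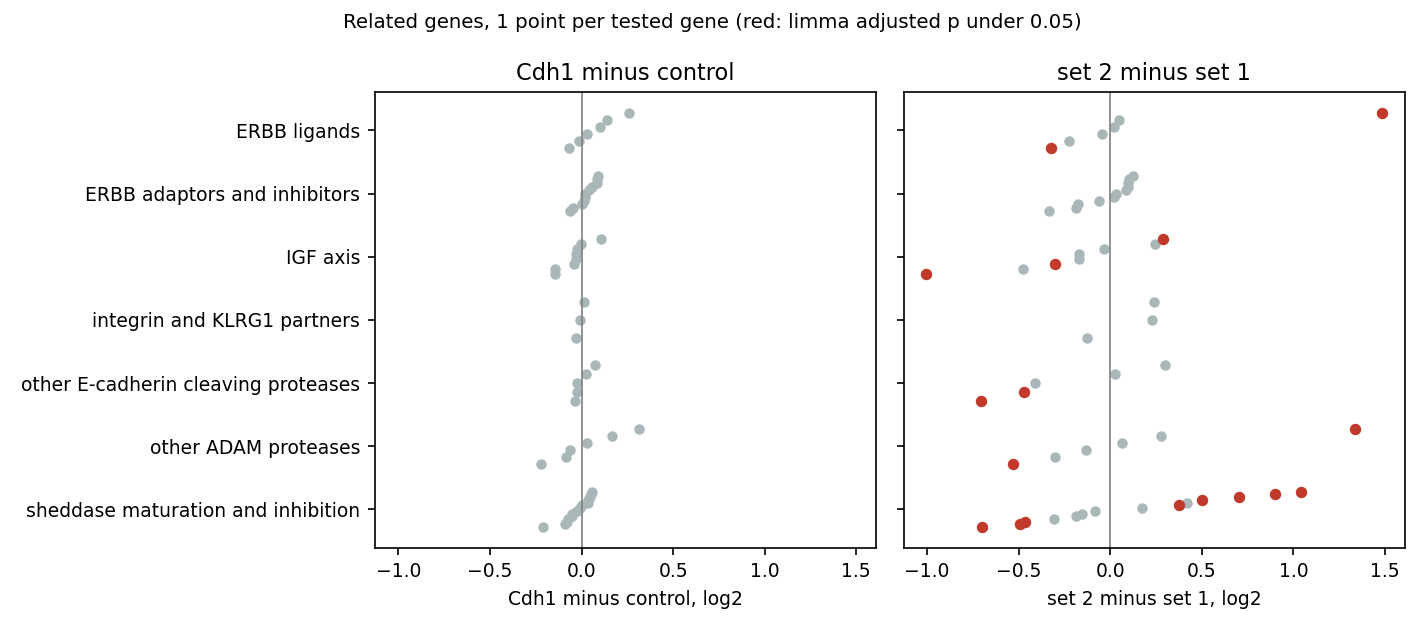
Difference on the log2 scale (x axis) for each of the 53 tested genes of the 7 related lists, for Cdh1 minus control (left) and set 2 minus set 1 (right). Red points have a limma adjusted p under 0.05 without a block: there are none on the left and 17 on the right, from Irs2 at -1.004 to Tgfa at 1.48.

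The identity of the cells was checked with marker lists. Of 8 melanocyte markers, 7 were well above background on all 4 arrays, namely Mitf, Sox10, Tyr, Tyrp1, Dct, Pmel and Mlana. Between the sets Tyr differed by -1.77, Pmel by -0.42 and Mitf by -0.39 (limma adjusted p 0.00923, 0.0299 and 0.0419, and 0.0423, 0.0639 and 0.0798 with the block), and the summed level of the list was between 10.36 and 10.60 on the arrays. These were 3 of the 7 tested melanocyte markers, all called lower in set 2, beside 10.5% of all genes called lower. The others were not called: Sox10 differed by 0.20, Tyrp1 by -0.15, Dct by -0.12 and Mlana by -0.21. Tyr, Pmel and Mitf thus moved between the same sets as Erbb2 and Erbb3, and their part in the receptor differences was not tested. Of 8 markers of T and natural killer cells, the cells in which Klrg1, Itgae and Itgb7 are known, 5 were well above background on no array: Ptprc, the common leukocyte gene, and Cd3g, Cd8a, Ncr1 and Klrb1c. The probes of Cd3e, Cd3d and Cd4 were above it on all 4. The summed level of this list was between 0.98 and 1.23. Of 7 epithelial markers 3 were above background on all 4 arrays, namely Krt5, Krt14 and Cdh1 itself. The signals of Cdh1 were -4.56, -4.55, -4.38 and -4.45. Epcam, Krt8 and Krt18 were above background on none, and Cldn4 on 1. Of 5 myeloid markers 3 were above background on all 4 arrays, namely Csf1r, Cd14 and Itgam, with Lyz2 above it on 1 and Adgre1 on none. Of 6 fibroblast markers 4 were above background on all 4 arrays, with Dcn and Lum above it on none. The summed level was between 3.33 and 3.55 for the myeloid and between 1.45 and 1.85 for the fibroblast list. Itgam had the highest signal of the myeloid list, at 3.44, 3.43, 3.22 and 3.40. The collagen gene Col1a1 gave -3.68, -3.69, -4.72 and -5.09 and fell by 1.22 from set 1 to set 2 (limma adjusted p 0.0236, and 0.0495 with the block). Pdgfra, a growth factor receptor of fibroblasts, fell by 0.41 (limma adjusted p 0.0359, and 0.0770 with the block). These were 2 of the 4 tested fibroblast markers, beside 10.5% of all genes called lower. The others were not called: Col1a2 differed by -0.32 (limma adjusted p 0.0579) and Pdgfrb by 0.04 (limma adjusted p 0.825). Col1a1 and Pdgfra thus also moved between the same sets as Erbb2 and Erbb3, and their part was not tested. None of the tested markers was called between Cdh1 and control.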

How the data were processed

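Total RNA of 4 cultures (100 ng each) was labelled with cyanine-3, per the labels' protocols. The authors extracted the arrays with Agilent Feature Extraction 12.0.3.1, per the file headers and the submitters' processing notes. The deposited intensity of a spot is background-subtracted and detrended within its array, not scaled between arrays. The authors' table holds the same intensities times 1 factor per array (0.873 to 0.930). The headers give mm9 as the design's build, so no coordinates were taken from the files.

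Signals were log2 of the processed intensity minus the 75th percentile of the array, averaged over a probe's spots, leaving out control spots and spots marked as outliers. A probe took the flag for being well above background if a share of its spots above 0.5 had it. Of 56605 probes, 33767 matched a symbol in the RefSeq table of GRCm38.p6. Each gene was read from the probe brightest on average over the 4 arrays. Testing required both arrays of at least 1 treatment group to be well above background. It was done with limma 3.58.1 in R 4.3.3 (lmFit and eBayes, no block, Benjamini-Hochberg over 32568 probes). The code was run on simulated data that held no set difference, so that check does not cover the set differences present here. The same probes were used for the sets, named by the labels. The replicate numbers pair the arrays: the design text gives the sets, and deviations from group means correlated at 0.744 between the arrays of a set. With 2 arrays per group both sets give the same value by construction. Without a block, the error of the Cdh1 test includes the difference between the sets. The error of the set test is the spread between the control and the treated culture of a set. Each set was made once, so the p-values of the set test do not measure how repeats of a set vary.

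Named were all members, and per related list the called genes (up to 3 by size) plus the gene with the highest signal. Other names were chosen after their values were seen, and marker lists are given by counts, with called markers named. The members and lists were chosen with earlier results of these data known. Alternatives were other scalings, filters, priors, blocks, left-out arrays and rows, and the mean of a gene's probes.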

Additional observations from a re-analysis of the deposited data

How the results depend on the processing

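Cdh1 comparison. Called probes and members numbered 0 under every alternative run. The replicate block, which pairs the arrays by set, changed no Cdh1 call: the Erbb2 difference was 0.01 (limma adjusted p 0.994), and 2335 probes had an unadjusted p under 0.05, against 561 without it. With single arrays omitted the range was 0 to 0. Of the member differences, 14 reversed in sign and 70 did not, and none was called. Reversals were -0.038 for Erbb2, -0.019 for Adam10 and -0.0024 for Adam15 with median centring, -0.055 for Erbb2 with normexp, 0.022 for Igf1r in the authors' table, and -0.071 for Adam10 with the mean of its probes. Leaving out each array in turn gave -0.24 to 0.25 for Erbb2, -0.91 to 0.56 for Erbb3, -0.31 to 0.30 for Igf1r, -0.16 to 0.030 for Itgb7 and -0.0071 to 0.057 for Adam10. These fits had no block. With an array left out, 1 group holds a single set, so the difference then includes part of the difference between the sets. Median centring shifts all probes of an array by the same amount. What lay behind the other reversals was not tested.

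Set comparison. The 4571 called probes became 8496 with normexp, 10712 with a trended robust prior, 1597 with the treatment block, 0 without the filter on dim probes (lowest limma adjusted p 0.0743, 9529 at an unadjusted p under 0.05) and 0 to 0 with single arrays left out, which leaves 1 residual degree of freedom and takes the lone array to vary like the others (7812 to 9411 at an unadjusted p under 0.05). The 2 called members became 3, with Igf1r added, under normexp, under the filter on all 4 arrays and under the trended robust prior, 4 with the mean of each gene's probes, which added Igf1r and Adam10, 0 with the treatment block, 0 without the filter and 0 to 0 with single arrays left out. The mean of its probes turned the Itgb7 difference to -0.32. Erbb2, Erbb3 and Igf1r stayed higher in set 2 under each alternative. Leaving out the probes in the last 24 rows, because of earlier results, changed no member call. Members were counted by their brightest probes, and none of these lay in those rows. Only the prior and the adjustment could thus have changed a member call. The further Erbb2 probe lay there and was not among the counted probes. Precision rests on 4 arrays, and the dim probes of Erbb3, Itgb7, Klrg1 and Itgae lie near background.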
